A study of Mus musculus with 12 samples.

Results

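Cblif, Cldn18, Smarca1, Moxd1, Hpgd, Apcs, Bex3, Tm4sf4, Rasl10a and Fads3 are 10 mouse genes whose signals were much higher in the pancreas of mice lacking Mist1 than in that of wild type mice. They were chosen by that difference from the measured values of the same arrays, so their genotype differences are given below as a description, without a test. They are 10 of the 12336 genes that had a probe set with a single gene symbol, and they had 13 such probe sets, of which 12 passed the filter on dim signals. Of these 12, 8 lay at or below the filter by their wild type arrays alone and passed it through the Mist1KO arrays, the exceptions being Bex3, both probe sets of Hpgd and 1 of Cldn18. Whole pancreas RNA was hybridised to 12 Affymetrix mouse arrays, 1 per pancreas, in 4 groups of 3: Mist1KO mice given caerulein, Mist1KO mice given saline, wild type mice given caerulein and wild type mice given saline. The mice were males of 2 to 4 months that received an injection each hour for 4 hours and were killed at 4 hours. Wild type mice were C57BL6. The sources used here do not give the strain of the Mist1KO mice, the allele they carried or the dose of caerulein, and any difference of strain cannot be told apart from the loss of Mist1. Both Mist1KO groups carried the deletion, and the labels name no inducible or cell-type-specific step. The design text calls the pancreata biological replicates.

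The Bhlha15 gene encodes Mist1, which belongs to the basic helix-loop-helix transcription factors and is found in cells that secrete proteins in bulk. In the pancreas it is made by acinar cells, the cells that synthesise digestive enzymes, where it is known for the organisation of secretory granules and of the apical cell pole. Basic helix-loop-helix factors bind E boxes, short DNA elements written CANNTG. Caerulein is an analogue of the hormone cholecystokinin, which makes acinar cells secrete, and repeated high doses are used to induce acute pancreatitis in mice.

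The 10 genes have no single pathway in common. Cblif encodes intrinsic factor, the stomach protein that carries vitamin B12 to its receptor in the gut and that is made by chief cells in mice. Cldn18 encodes a claudin that seals tight junctions in the epithelia of stomach and lung, with a different first exon in each organ. Apcs encodes serum amyloid P component, a pentraxin that the mouse liver secretes in the acute phase response. Hpgd encodes the dehydrogenase that inactivates prostaglandins, Moxd1 a protein related to the copper-dependent dopamine beta-hydroxylase, and Fads3 a member of the fatty acid desaturase family. Smarca1 encodes the ISWI-type chromatin remodelling ATPase SNF2L. Tm4sf4 encodes a membrane protein of the L6 tetraspanin-like family, Bex3 a small adaptor that interacts with the neurotrophin receptor p75, and Rasl10a a small Ras-like GTPase.

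The RefSeq promoter table for GRCm38.p6 (250 bases before to 50 after each transcription start) held 11 promoters for the 10 genes, with a pair for Cldn18. The 5 shown belong to the genes with the highest signal in Mist1KO pancreas after saline (Cblif, Smarca1 and Hpgd) and to the gene with 2 starts (Cldn18), whose probe sets behaved differently. They are Cblif at chr19:11747309-11747608 (plus strand), Cldn18 at chr9:99717218-99717517 and chr9:99710014-99710313 (both minus strand), Smarca1 at chrX:47892564-47892863 (minus strand) and Hpgd at chr8:56294302-56294601 (plus strand). Capitals mark each match to the E box CANNTG.
Cblif promoter: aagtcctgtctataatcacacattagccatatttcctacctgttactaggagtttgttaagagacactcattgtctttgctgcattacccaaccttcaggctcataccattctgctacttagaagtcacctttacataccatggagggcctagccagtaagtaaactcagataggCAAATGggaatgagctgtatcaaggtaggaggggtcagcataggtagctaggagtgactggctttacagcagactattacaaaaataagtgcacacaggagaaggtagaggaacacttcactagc
Cldn18 upstream promoter: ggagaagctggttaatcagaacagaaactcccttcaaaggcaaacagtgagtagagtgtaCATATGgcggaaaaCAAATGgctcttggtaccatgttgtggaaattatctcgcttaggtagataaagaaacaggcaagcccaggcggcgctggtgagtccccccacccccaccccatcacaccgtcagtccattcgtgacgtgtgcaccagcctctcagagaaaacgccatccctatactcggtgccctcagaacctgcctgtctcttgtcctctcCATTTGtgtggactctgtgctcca
Cldn18 downstream promoter: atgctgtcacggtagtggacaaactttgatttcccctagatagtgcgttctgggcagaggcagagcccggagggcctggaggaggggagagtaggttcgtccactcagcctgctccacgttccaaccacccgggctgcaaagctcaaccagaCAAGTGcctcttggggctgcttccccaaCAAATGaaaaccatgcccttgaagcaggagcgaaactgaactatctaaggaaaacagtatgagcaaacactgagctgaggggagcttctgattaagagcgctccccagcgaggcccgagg
Smarca1 promoter: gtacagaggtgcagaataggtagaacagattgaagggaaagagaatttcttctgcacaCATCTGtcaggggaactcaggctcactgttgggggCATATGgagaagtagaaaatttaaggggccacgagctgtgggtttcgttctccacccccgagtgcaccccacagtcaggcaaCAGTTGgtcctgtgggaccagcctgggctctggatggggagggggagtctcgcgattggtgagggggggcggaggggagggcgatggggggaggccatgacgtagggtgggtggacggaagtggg
Hpgd promoter: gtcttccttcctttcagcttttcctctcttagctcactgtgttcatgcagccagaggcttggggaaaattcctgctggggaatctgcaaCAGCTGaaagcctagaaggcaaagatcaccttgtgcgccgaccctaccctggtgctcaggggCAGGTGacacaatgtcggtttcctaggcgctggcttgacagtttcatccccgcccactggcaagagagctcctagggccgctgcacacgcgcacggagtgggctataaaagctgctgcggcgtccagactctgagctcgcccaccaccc

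All 11 promoters held at least 1 CANNTG, as did 72.3% of the 32851 mouse promoters of the same length. They held 1.91 matches on average, against 1.39 over all promoters. The palindromic form CATATG was present in 2 of the 11, the upstream Cldn18 promoter and that of Smarca1, against 3.91% of all promoters. The form CAGCTG was present in 2 of the 11, those of Apcs and Hpgd, against 16.3% of all. Both are forms of CANNTG, so these counts overlap, and all 3 read the same on either strand as motifs. The letters TATAAA, searched on both strands, were present in the promoters of Hpgd and Tm4sf4, against 13.6% of all promoters. These are matches of letters and not measured binding sites.

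The deletion was visible in its own gene. Bhlha15 (probe set 1449233_at) had signals of 42.6, 38.3 and 79.4 in Mist1KO pancreas after caerulein and 89.9, 95.9 and 107 in Mist1KO pancreas after saline, against 777, 729.5 and 838.5 in wild type after caerulein and 1601, 1619 and 1624 in wild type after saline. The second probe set of Bhlha15, 1418800_at, averaged 69.7 in Mist1KO and 212 in wild type after caerulein. After saline it averaged 70.6 in Mist1KO and 382 in wild type. In wild type, Bhlha15 was lower after caerulein than after saline on the log2 scale by both probe sets. The differences were -1.03 by 1449233_at (limma adjusted p = 0.000934) and -0.80 by 1418800_at (adjusted p = 0.00424). Array medians lay between 70.6 and 90.15, and no pair of arrays held the same values. The hybridisation control spikes differed between groups, with geometric means over their probe sets of 408 to 513 on the Mist1KO caerulein arrays, 755 to 1009 on the Mist1KO saline arrays, 831 to 1443 on the wild type caerulein arrays and 1201 to 1325 on the wild type saline arrays. Their part in the results was not tested. The tissue label was borne out by the summed signal of 9 acinar cell markers (7 digestive enzyme genes and the transcription factor genes Ptf1a and Rbpjl), which was 65342 to 100408 in Mist1KO after caerulein, 112488 to 132100 in Mist1KO after saline, 127799 to 180014 in wild type after caerulein and 153880 to 196797 in wild type after saline. In whole tissue, fewer cells of a type and less RNA per cell cannot be told apart.

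**Figure D1:**
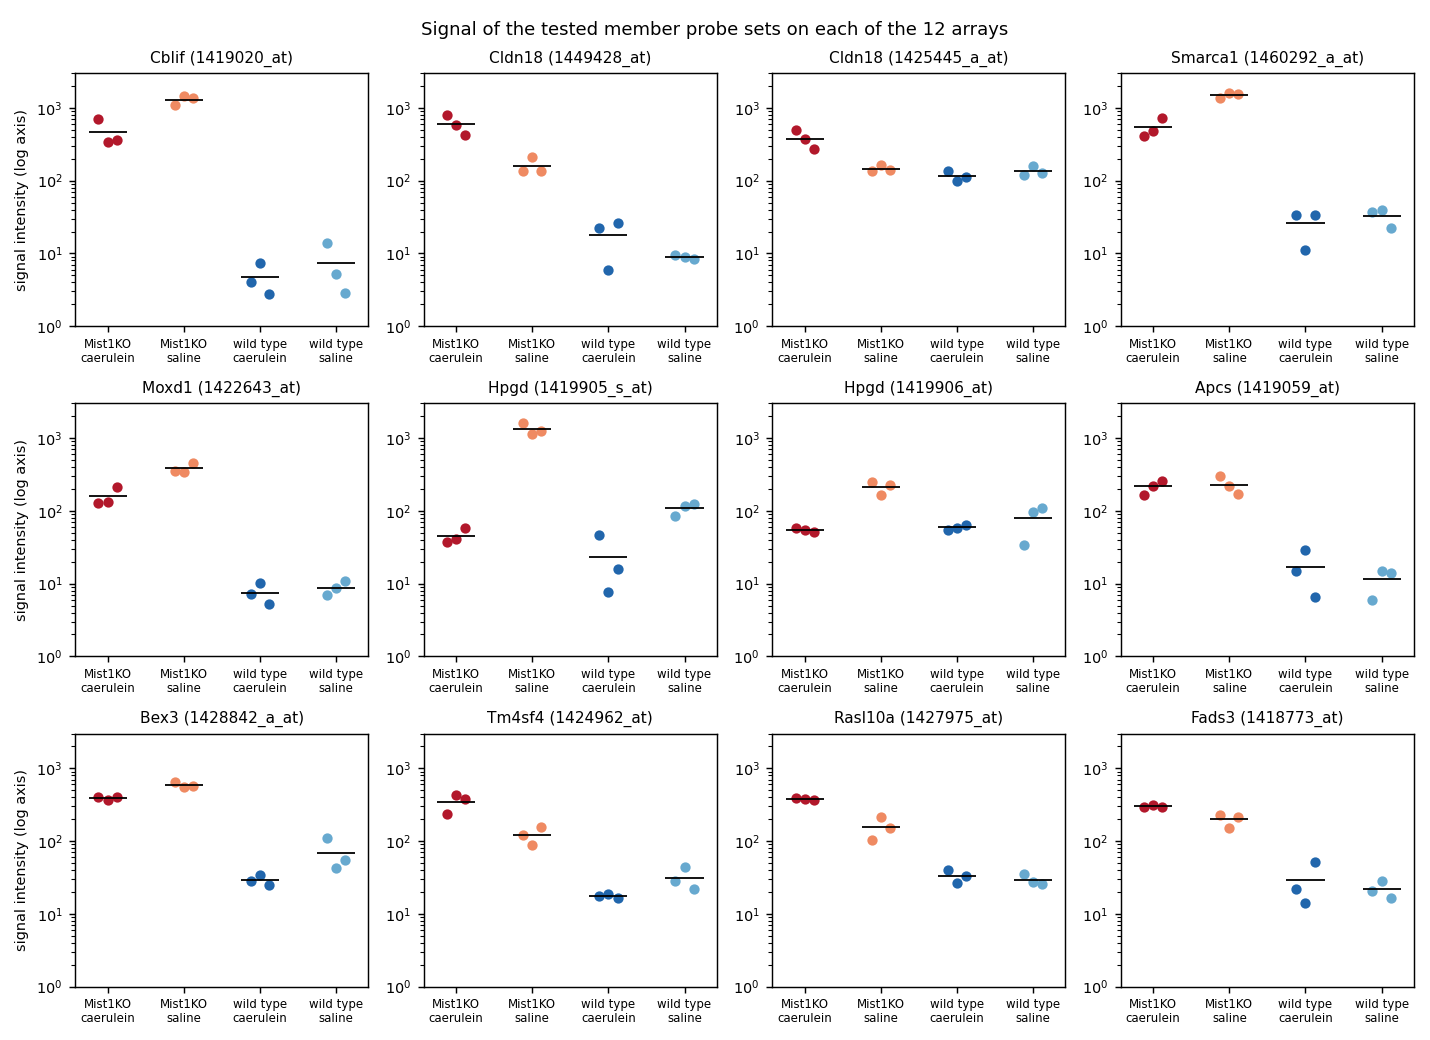
Signal intensity (log axis) of the 12 tested probe sets of the 10 genes on each array. Points are the 3 arrays of a group and bars are group means. Cblif reads 342 to 1438 on the 6 Mist1KO arrays and 2.8 to 14.0 on the 6 wild type arrays, whereas Hpgd (1419905_s_at) reads at least 1144 only on the 3 Mist1KO saline arrays.

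Signals are linear intensities as deposited, scaled to a common mean per array. Differences are on the log2 scale after adding an offset of 18.7, which shrinks the differences of dim probe sets, and are given with the standard error (SE) of a limma fit to all 12 arrays. No detection calls were given, so a signal of a few units in wild type may be background and its group's true level is not known.

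The stomach gene Cblif had the largest increase of the 9481 genes tested after either injection. Its probe set 1419020_at read 713, 342 and 361 in Mist1KO pancreas after caerulein and 1082, 1438 and 1372 in Mist1KO after saline, against 4.1, 7.4 and 2.8 in wild type after caerulein and 14.0, 5.2 and 2.9 in wild type after saline. Every Mist1KO array was thus above every wild type array, and the wild type arrays were near the lowest signals of the array. The mean was 1298 ± 189 in Mist1KO and 7.37 ± 5.86 in wild type after saline (SD, n = 3 each), a log2 difference of 5.67 ± 0.26 (SE) or 50.9-fold on the scale with the offset. After caerulein the difference was 4.31 ± 0.26.

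Cldn18 was read by a pair of probe sets that differed. Probe set 1449428_at read 797, 577 and 422 in Mist1KO after caerulein and 137, 211 and 136 in Mist1KO after saline, against 22.3, 6.0 and 25.9 in wild type after caerulein and 9.4, 8.8 and 8.4 in wild type after saline. Here both Mist1KO groups lay above both wild type groups, with log2 differences of 4.07 ± 0.28 after caerulein and 2.68 ± 0.28 after saline. Probe set 1425445_a_at, built to read several transcripts of the gene, gave 494.5, 370 and 274 in Mist1KO after caerulein and 136, 163 and 139 in Mist1KO after saline, against 138, 98.0 and 113 in wild type after caerulein and 120.2, 157 and 126.0 in wild type after saline. It separated the genotypes after caerulein, by 1.53 ± 0.20, and overlapped after saline, where the difference was 0.11 ± 0.20. The sources used here do not say which Cldn18 transcripts each probe set reads, and so which of the 2 promoters printed above.

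Of the enzymes, Hpgd was the most variable between injections. Probe set 1419905_s_at, whose name marks probes that may be shared with other genes, read 37.3, 40.8 and 57.5 in Mist1KO after caerulein and 1623, 1144 and 1237 in Mist1KO after saline, against 46.0, 7.7 and 16 in wild type after caerulein and 83.9, 116 and 125 in wild type after saline. The genotypes were apart after saline, by 3.41 ± 0.28 on the log2 scale, and overlapped after caerulein, where the difference was 0.70 ± 0.28. The other probe set, 1419906_at, was also highest in Mist1KO after saline, at a lower signal there, and its caerulein groups overlapped: 57.5, 54.5 and 51.5 in Mist1KO after caerulein and 249, 168 and 226 in Mist1KO after saline, against 54.5, 59.0 and 64.7 in wild type after caerulein and 33.8, 96.0 and 108 in wild type after saline.

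Moxd1 (1422643_at) read 128, 133 and 215 in Mist1KO after caerulein and 358, 345 and 462 in Mist1KO after saline, against 7.2, 10.1 and 5.3 in wild type after caerulein and 6.9, 8.7 and 10.7 in wild type after saline. Its genotypes did not overlap after either injection, and its log2 difference was 2.73 ± 0.23 after caerulein and 3.88 ± 0.23 after saline. Fads3 (1418773_at) read 295, 315 and 293 in Mist1KO after caerulein and 229, 149.8 and 216.5 in Mist1KO after saline, against 21.8, 14.3 and 51.4 in wild type after caerulein and 20.6, 28.2 and 16.7 in wild type after saline. The Mist1KO arrays were again all above the wild type arrays, by 2.81 ± 0.26 after caerulein and 2.41 ± 0.26 after saline. The second Fads3 probe set, 1449219_at, stayed dim, between 8.7 and 65.6 on the 12 arrays, and was left out by the filter.

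Smarca1 (1460292_a_at), the chromatin remodelling ATPase, read 415, 477 and 732 in Mist1KO after caerulein and 1352, 1627.5 and 1548 in Mist1KO after saline, against 33.9, 11 and 34.1 in wild type after caerulein and 36.8, 40 and 22.3 in wild type after saline. It ranked next to Cblif after saline, with a log2 difference of 4.90 ± 0.25, and the difference was 3.64 ± 0.25 after caerulein. Apcs (1419059_at), the secreted pentraxin, read 167, 222 and 261 in Mist1KO after caerulein and 299, 219 and 170.0 in Mist1KO after saline, against 15, 29.1 and 6.6 in wild type after caerulein and 5.9, 14.7 and 14.2 in wild type after saline. Its log2 difference between genotypes was close after the 2 injections, at 2.75 ± 0.28 after caerulein and 3.01 ± 0.28 after saline.

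Among the membrane and signalling genes, Bex3 (1428842_a_at) read 408, 367 and 401 in Mist1KO after caerulein and 642, 559.9 and 578 in Mist1KO after saline, against 28.6, 34.6 and 25 in wild type after caerulein and 110.3, 42.4 and 55.2 in wild type after saline. The lowest Mist1KO array was above the highest wild type array after each injection, and the log2 difference was 3.10 ± 0.22 after caerulein and 2.87 ± 0.22 after saline. Tm4sf4 (1424962_at) read 238, 424 and 382 in Mist1KO after caerulein and 122, 88.2 and 156 in Mist1KO after saline, against 17.6, 18.9 and 16.5 in wild type after caerulein and 28.3, 43.8 and 21.8 in wild type after saline. It had the smallest saline difference of the 10 genes by its most changed probe set, 1.49 ± 0.26, and a difference of 3.30 ± 0.26 after caerulein. Rasl10a (1427975_at) read 392.5, 373 and 369 in Mist1KO after caerulein and 102, 214 and 150.2 in Mist1KO after saline, against 39.7, 26.3 and 32.8 in wild type after caerulein and 35.3, 27.4 and 26.0 in wild type after saline. Its groups were also apart, by 2.95 ± 0.22 after caerulein and 1.81 ± 0.22 after saline.

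Across the array, 6.84% of the 15716 probe sets tested were higher and 5.74% lower in Mist1KO than in wild type after saline, and 10.0% were higher and 10.2% lower after caerulein (limma, Benjamini-Hochberg adjusted p under 0.05). All 10 genes were on the higher side of that threshold after saline by at least 1 probe set, and all but Hpgd after caerulein. Since this contrast chose the genes, nothing is read from these counts. Of the 10 genes with the largest increase, 7 were members after saline and 7 after caerulein. Tm4sf4 (place 73) and Rasl10a (place 40) were further down the order of 9481 genes after saline, and Hpgd (place 953) after caerulein. With each array centred on its median, the share of calls that were higher in Mist1KO was 71.5% after saline, against 54.4% as deposited, and 61.8% after caerulein, against 49.7% as deposited.

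**Figure D2:**
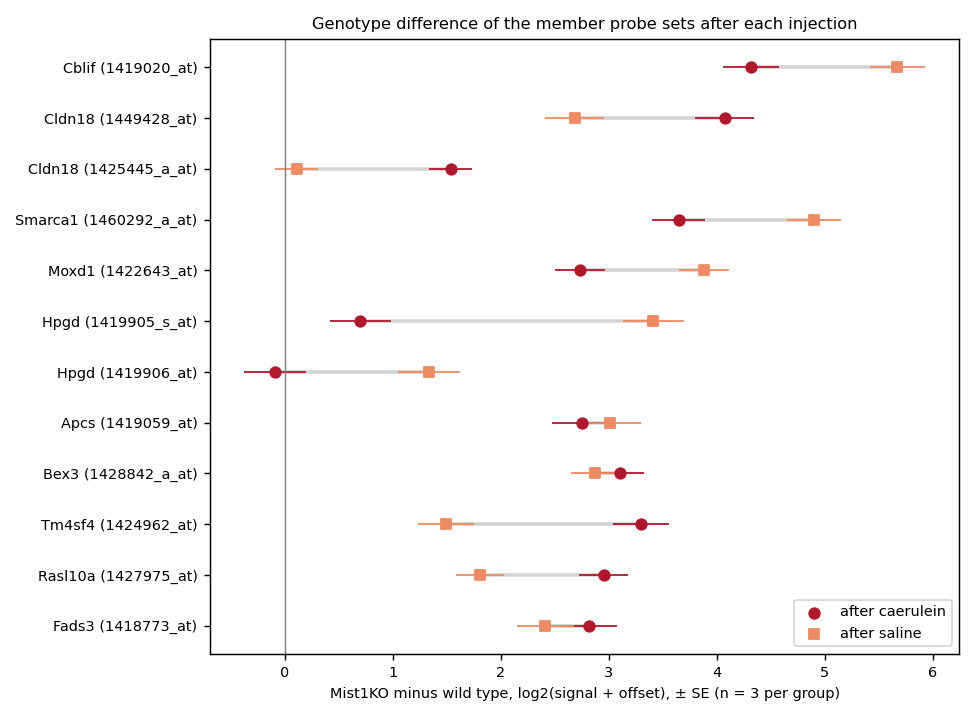
Difference between Mist1KO and wild type on the log2 scale with the offset, ± SE from the limma fit, for each tested probe set after caerulein (circles) and after saline (squares), with 3 arrays per group. The differences of Cblif, Smarca1 and Moxd1 are smaller after caerulein, that of Hpgd (1419905_s_at) is 0.70 against 3.41, and those of Cldn18, Tm4sf4 and Rasl10a are larger.

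The response to caerulein is a different contrast from the one that chose the genes, although it uses the same arrays. In Mist1KO pancreas, 7 of the 10 genes changed and they went in both directions: Cldn18, Tm4sf4 and Rasl10a rose, and Cblif, Smarca1, Moxd1 and Hpgd fell. Over all probe sets, 10.5% were higher and 13.4% lower in Mist1KO after caerulein. Of the 12 member probe sets, 4 were higher and 5 lower. The Mist1KO arrays entered both the choice of the genes and this contrast, so no excess of member changes is read from these counts. The median change of the 12 member probe sets was -0.32 in Mist1KO, against -0.13 for all probe sets tested. In wild type pancreas, 2 of the 10 genes, Hpgd and Bex3, fell and none rose, against 9.19% higher and 9.74% lower over all probe sets, with a median of -0.16 over the members and -0.14 over all. By the wild type arrays alone, 8 of the 12 member probe sets lay at or below the filter, those of Hpgd and Bex3 not among them. Such dim signals leave little room for a fall, so the wild type count says little of these members. Centring each array on its median turned the split of all calls toward higher, to 59.8% from 43.9% as deposited in Mist1KO and to 67.8% from 48.5% as deposited in wild type.

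Of the genes that rose, Cldn18 was 3.38-fold higher by 1449428_at after caerulein than after saline in Mist1KO mice (log2 difference 1.76 ± 0.28, limma adjusted p = 0.000356) and 2.36-fold higher by 1425445_a_at (1.24 ± 0.20, adjusted p = 0.000441). The 3 caerulein arrays were above the 3 saline arrays by both probe sets. Tm4sf4 was 2.59-fold higher (1.37 ± 0.26, adjusted p = 0.00148). Rasl10a was 2.36-fold higher (1.24 ± 0.22, adjusted p = 0.00111), and its caerulein arrays were the least spread of any member group relative to the mean, with a coefficient of variation of 3.31%. In wild type the same probe sets had log2 differences of 0.37 ± 0.28 and -0.19 ± 0.20 for Cldn18, -0.44 ± 0.26 for Tm4sf4 and 0.09 ± 0.22 for Rasl10a, none of which passed the threshold.

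Of the genes that fell in Mist1KO, Hpgd did so most. By 1419905_s_at it was 21.1-fold lower after caerulein than after saline (log2 difference -4.40 ± 0.28, limma adjusted p = 2.00e-07), the largest fall of the 9481 genes tested, and by 1419906_at it fell by 1.66 ± 0.28 on the log2 scale (adjusted p = 0.000704). In wild type, 1419905_s_at fell by 1.69 ± 0.28 (adjusted p = 0.000842), whereas the change by 1419906_at was -0.23 ± 0.28 (adjusted p = 0.608). Cblif fell by 1.49 ± 0.26 in Mist1KO (adjusted p = 0.000765), Smarca1 by 1.49 ± 0.25 (adjusted p = 0.0006) and Moxd1 by 1.22 ± 0.23 (adjusted p = 0.00151). After this fall their caerulein signals in Mist1KO still lay above every wild type array, whereas those of Hpgd did not.

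Apcs, Bex3 and Fads3 did not pass the threshold in Mist1KO, with log2 differences of -0.06 ± 0.28 (limma adjusted p = 0.905), -0.57 ± 0.22 (adjusted p = 0.0798) and 0.58 ± 0.26 (adjusted p = 0.133). With the offset at the 40th percentile Bex3 (0.0296) and Fads3 (0.0489) passed, as they did with only the 2 Mist1KO groups fitted (0.00501 and 0.0272), so that the 7 genes called in Mist1KO were 6 to 9 over the alternatives. Bex3 also passed when wild type saline replicate 1 (adjusted p = 0.0129) or replicate 2 (adjusted p = 0.0413) was left out, and its 3 caerulein arrays were all below its 3 saline arrays. In wild type Bex3 fell by 0.80 ± 0.22 (adjusted p = 0.0221). That call rested on single arrays, since without wild type saline replicate 1, the highest of its group at 110.3, the difference was -0.49 (adjusted p = 0.0655), and without wild type caerulein replicate 3 the adjusted p was 0.074.

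**Figure D3:**
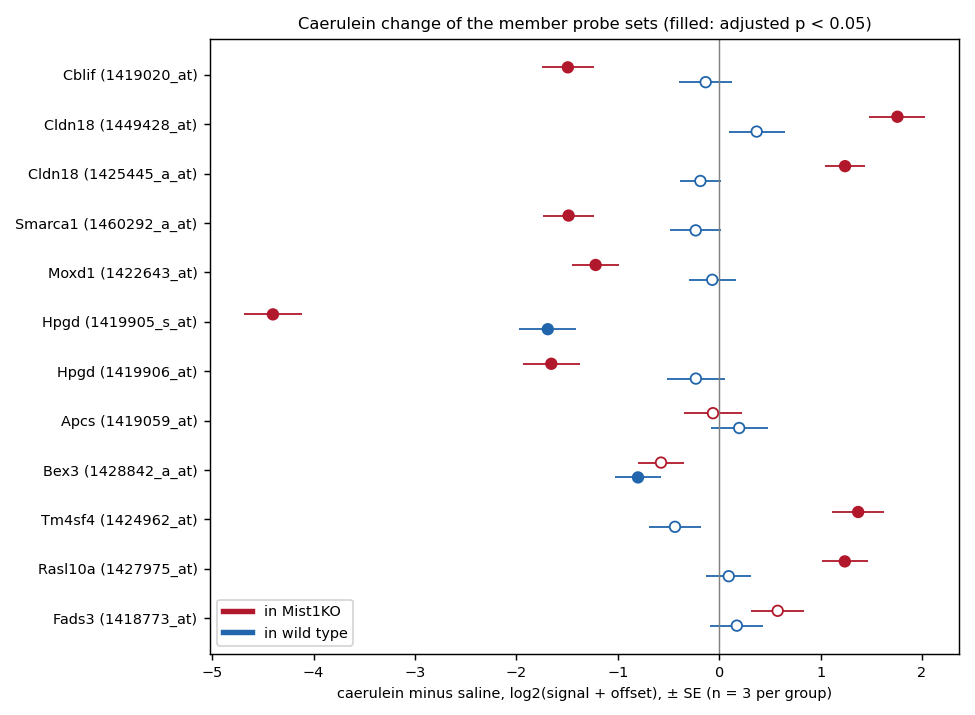
Difference between caerulein and saline on the log2 scale with the offset, ± SE from the limma fit, for each tested probe set in Mist1KO (red) and in wild type (blue), with 3 arrays per group. Filled points have an adjusted p under 0.05 over all 15716 probe sets. In Mist1KO 9 of the 12 probe sets are filled, from -4.40 for Hpgd to 1.76 for Cldn18, and in wild type 2 are.

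The difference between these changes was tested as the interaction of genotype and injection, which was more positive in Mist1KO for 1.51% of all probe sets and more negative for 1.78%. It equals the difference between the 2 genotype differences that chose the genes, so it is not independent of that choice and its p-values are given as a description of size against spread. It passed the threshold for 3 of the 10 genes, of which Tm4sf4 is dim in wild type. The change of Hpgd by 1419905_s_at was more negative in Mist1KO than in wild type, with an interaction of -2.71 ± 0.40 (limma adjusted p = 0.00369). That of Tm4sf4 was more positive by 1.81 ± 0.36 (adjusted p = 0.0168) and that of Cldn18 by 1425445_a_at by 1.43 ± 0.28 (adjusted p = 0.0155). The call for Tm4sf4 was lost without Mist1KO caerulein replicate 2 (adjusted p = 0.0556). Several others lay close to the threshold: Cblif had an interaction of -1.36 (adjusted p = 0.0624), Smarca1 of -1.25 (adjusted p = 0.0742), Moxd1 of -1.15 (adjusted p = 0.075), Rasl10a of 1.14 (adjusted p = 0.0704) and Cldn18 by 1449428_at of 1.39 (adjusted p = 0.0738). Each of these passed it when a single array was left out: Cblif without wild type saline replicate 1 (adjusted p = 0.046) or Mist1KO caerulein replicate 1 (0.0175), Smarca1 without wild type caerulein replicate 2 (0.0249) or Mist1KO caerulein replicate 3 (0.0339), Moxd1 and Cldn18 without Mist1KO caerulein replicate 3 (0.0381 and 0.048) and Rasl10a without Mist1KO saline replicate 2 (0.0328). Hpgd by 1419906_at, at -1.43 (adjusted p = 0.0742), passed it without wild type saline replicate 3 (adjusted p = 0.0442). Under other alternatives the limma adjusted p of these interactions rose, up to 0.249 for Cblif, 0.244 for Smarca1 and 0.208 for Moxd1. It reached 0.165 for Rasl10a, 0.28 for Cldn18 by 1449428_at and 0.171 for Hpgd by 1419906_at, so none is read as a call. Apart from that of Hpgd, these probe sets lay at or below the filter by their wild type arrays alone. For Apcs, Bex3 and Fads3 the interaction was -0.26, 0.23 and 0.40, with adjusted p of 0.81, 0.786 and 0.652. A wild type signal near the bottom of the range cannot fall much further, and the fit does not correct for that.

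Within the Mist1KO caerulein group, replicate 3 lay nearest to the saline mean for 6 of the 9 member probe sets that changed, and for 62.1% of the 3764 probe sets that changed on the whole array. The acinar cell markers moved with the same contrast: 8 of 9 tested fell in Mist1KO after caerulein, the 7 enzyme genes and Rbpjl, and 1 of 9 in wild type, Rbpjl, with the summed levels given above. Of these 8, Rbpjl alone passed with quantile normalization, which gives the brightest probe sets nearly the same value on every array. The part of acinar RNA loss in the changes of the 10 genes was not tested.

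The 2 stomach genes were set against a list of other stomach genes, 31 of them on the array and 21 tested. After saline 2 of the 21 were higher and 3 lower in Mist1KO, with a median log2 difference of -0.39, against -0.09 for all genes tested. After caerulein 2 of the 21 were higher and 4 lower, with a median of -0.20, against -0.09 for all genes. Over all probe sets 6.84% were higher and 5.74% lower after saline, and 10.0% higher and 10.2% lower after caerulein. The calls after saline were as follows. Sult1c2, a sulfotransferase of stomach and kidney, had a signal of 272 ± 53.7 in Mist1KO and 95.6 ± 25.8 in wild type after saline (SD, n = 3 each), a log2 difference of 1.36 ± 0.21 (limma adjusted p = 0.00103). Pga5, a pepsinogen, was also higher, by 0.52 ± 0.15 (adjusted p = 0.0331), a call lost without any 1 of the 6 saline arrays (adjusted p of 0.057 to 0.107). The transcription factor Foxq1 was lower (-0.70, adjusted p = 0.033), as were Barx1 (-0.65, adjusted p = 0.0462) and the mucin Muc1 (-0.56, adjusted p = 0.0202), and leaving out 1 array ended the call for Foxq1 with wild type saline replicate 1 or 2 or Mist1KO saline replicate 1 or 3, for Barx1 with any of 10 of the 12 arrays and for Muc1 with wild type saline replicate 2 or Mist1KO saline replicate 2 or 3. The brightest genes of the list after saline were Tff2, a mucosal peptide, at 10372 in Mist1KO and 13635 in wild type, Muc1, Tff1 at 1354 in Mist1KO and 1670 in wild type, and the potassium channel gene Kcnq1 at 372 in Mist1KO and 324 in wild type. Gast read no more than 7.5 on any array, and Sox2 no more than 7.7 in Mist1KO and 26.2 in wild type. Further genes of the list went both ways after saline without being called. Gkn2 averaged 79.3 in Mist1KO and 48.7 in wild type, and Chia1 69.9 in Mist1KO and 35.3 in wild type. The parietal cell gene Atp4a averaged 64.5 in Mist1KO and 107 in wild type, and Atp4b 114 in Mist1KO and 149 in wild type.

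The summed signal of the stomach list was lower in Mist1KO than in wild type, at 9887 to 12935 against 16198 to 18787 after caerulein and at 14671 to 16681 against 18623 to 23169 after saline. Most of this sum was the signal of Tff2 alone. Tff2 averaged 6708 in Mist1KO and 12364 in wild type after caerulein, and 10372 in Mist1KO and 13635 in wild type after saline. The sum is therefore not a measure of the list as a whole. Pga5, a chief cell gene like Cblif, also fell after caerulein in Mist1KO (-0.73 ± 0.15, limma adjusted p = 0.00248), but unlike Cblif it was not called between genotypes after caerulein, at 158 in Mist1KO and 179.6 in wild type. The chief cell genes Pgc and Lipf were dim and untested: Pgc had group means of 17.1 in Mist1KO after caerulein and 42.0 in Mist1KO after saline, against 26.8 in wild type after caerulein and 43.1 in wild type after saline, and Lipf averaged 17.9 in Mist1KO after caerulein and 10.9 in Mist1KO after saline, against 13.3 in wild type after caerulein and 24.4 in wild type after saline. Of 9 other genes of vitamin B12 uptake and use, Cd320, the cellular receptor for transcobalamin, was higher after saline (0.65 ± 0.17, limma adjusted p = 0.0225) and none was lower; the call was lost without wild type saline replicate 3 or Mist1KO saline replicate 1 or 3.

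Other claudins moved with Cldn18 in part. Of 10 tested, 3 were higher and 1 lower in Mist1KO after saline, and 4 were higher and none lower after caerulein, with medians of -0.12 and 0.26 against -0.09 for all genes after each injection. Cldn7 read 2123, 2116 and 1740 in Mist1KO after caerulein and 703, 565 and 577 in Mist1KO after saline, against 749.5, 573 and 724 in wild type after caerulein and 177, 256.5 and 284 in wild type after saline. It was higher in Mist1KO after both injections, by 1.52 ± 0.17 after caerulein (limma adjusted p = 3.93e-05) and 1.32 ± 0.17 after saline (adjusted p = 0.000331). Cldn10 was higher after saline (0.71, adjusted p = 0.0046), Cldn6 was higher after saline by 0.93 (adjusted p = 0.0314, lost without any 1 of the 6 saline arrays) and by 2.26 after caerulein (adjusted p = 4.77e-05), and Cldn8 was lower after saline (-1.18, adjusted p = 0.009). Cldn4, at 230 to 1814 in Mist1KO after caerulein and 97.2 to 232.5 in wild type after caerulein, was higher by 2.35 (adjusted p = 0.0156), a call lost without wild type caerulein replicate 2 or Mist1KO caerulein replicate 1 or 2.

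For the families of the other members the counts after saline were as follows. Of 19 SNF2 family and ISWI partner genes, 1 was higher after saline, the histone-binding Rbbp7 (0.72 ± 0.18, limma adjusted p = 0.0204, lost without wild type saline replicate 2 or Mist1KO saline replicate 1 or 3), and none was lower. Counted by any probe set, as the members are counted, 3 of the 19 were higher after saline and none lower. After caerulein Baz1b (0.97, adjusted p = 0.00197), Baz2a (0.75, adjusted p = 0.0144), Chd4 (0.67, adjusted p = 0.0162) and Rbbp4 (0.57, adjusted p = 0.0122) of this list were higher and Smarcal1 (-0.92, adjusted p = 0.0378) lower in Mist1KO, with a median of 0.33; calls were lost for Baz2a without wild type caerulein replicate 2 or Mist1KO caerulein replicate 2, for Chd4 without Mist1KO caerulein replicate 2 and for Smarcal1 without any of 5 of the 6 caerulein arrays, the exception being Mist1KO caerulein replicate 3, or with quantile normalization, median-centred arrays, the replicate block or no filter. Of 3 copper monooxygenase genes, Dbh (-0.86, adjusted p = 0.0073) and Pam (-0.52, adjusted p = 0.0179) were lower, Pam's call being lost without Mist1KO saline replicate 2 or 3. Of 14 genes of prostaglandin synthesis, transport and breakdown, Ptgr1, a prostaglandin reductase, was higher (1.52 ± 0.36, adjusted p = 0.0148, lost without wild type saline replicate 1 or 2 or Mist1KO saline replicate 2) and none was lower. Of 13 other pentraxins and acute phase genes, the thyroid hormone carrier Ttr was higher (1.35 ± 0.20, adjusted p = 0.000961) and Itih4 lower (-2.43 ± 0.23, adjusted p = 2.18e-05). The nearest relatives of Apcs in this list, such as Crp, did not pass, at -0.37 for Crp (adjusted p = 0.204).

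Bex1 was the only 1 of 6 Bex and Tceal genes called after saline, 0.91 ± 0.23 higher (limma adjusted p = 0.0229, lost without wild type saline replicate 2 or 3 or Mist1KO saline replicate 1), and it was 2.09 higher after caerulein (adjusted p = 4.32e-05). Neither of 2 L6 family genes was called after saline, and Tm4sf1, the neighbour of Tm4sf4, was 1.98 ± 0.32 higher in Mist1KO after caerulein (adjusted p = 0.000793). From saline to caerulein, Tm4sf1 changed by -1.33 in wild type (limma adjusted p = 0.0111), a call lost under 2 of 21 alternatives. Its change of 0.59 in Mist1KO was not called (adjusted p = 0.217). None of 12 small Ras-like GTPase genes passed after saline, and of 12 fatty acid desaturase and elongase genes Elovl5 was lower (-0.66, adjusted p = 0.0292, lost without any of 5 of the 6 saline arrays, the exception being wild type saline replicate 1). Counted by any probe set, 2 of these 12 desaturase and elongase genes were lower after saline. By their most changed probe sets the 10 genes differed by 1.49 to 5.67 after saline. The relatives were read by their brightest probe sets, and their largest increase was 1.52 for Ptgr1. That was above the value of Tm4sf4 and below those of the other 9, but the rules of reading are unlike. By its brightest probe set Cldn18 differed by 0.11 after saline, below Ptgr1.

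**Figure D4:**
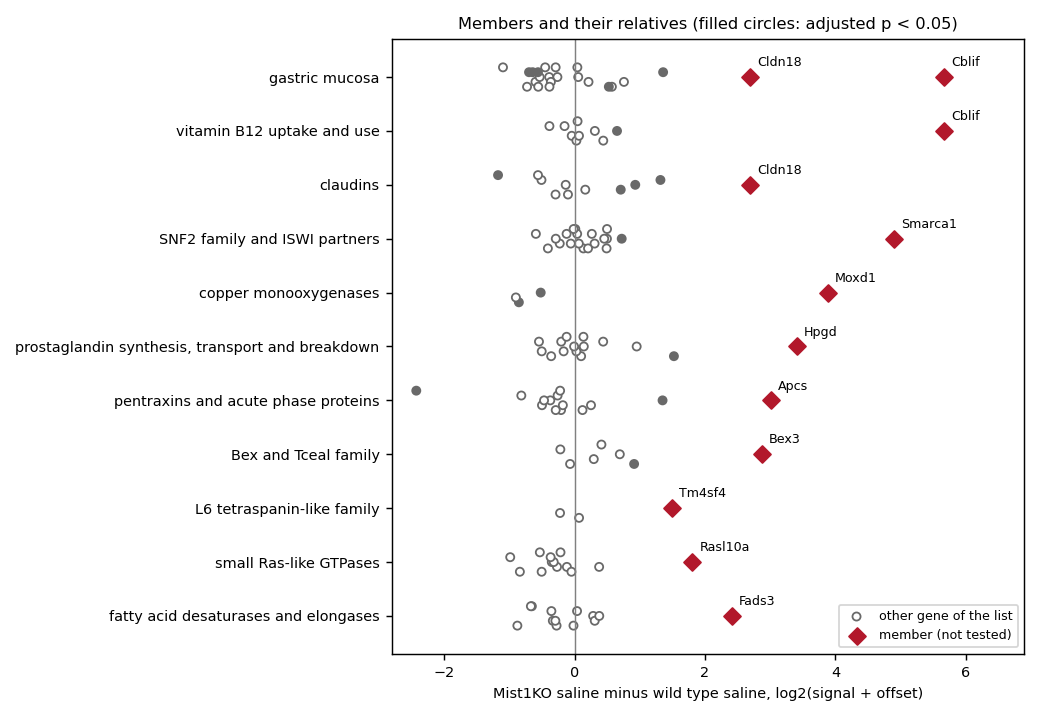
Difference between Mist1KO and wild type after saline on the log2 scale with the offset, for the 10 genes (diamonds, drawn without a test) and the other tested genes of 11 lists (circles, filled where the adjusted p is under 0.05). Diamonds show the most changed probe set of each member and lie between 1.49 and 5.67. Circles show the brightest probe set of each gene, and most lie within 1 unit of 0.

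Markers of other cell types were checked in the same contrast. After saline no gene was called by its brightest probe set among 9 acinar, 7 endocrine, 4 fibroblast, 5 macrophage and neutrophil, and 1 intestinal markers. Counted by any probe set, 1 of the macrophage and neutrophil markers was lower. The 7 acinar enzyme genes were between 0.44 and 0.55 lower (adjusted p of 0.0687 to 0.145), and 6 acinar markers passed without Mist1KO caerulein replicate 3 or with only the 2 saline groups fitted, and 1 without wild type caerulein replicate 3. Muc1 was lower among 4 duct markers, Ttr was higher among 3 hepatocyte markers and Cd3e was higher (2.07 ± 0.44, limma adjusted p = 0.00822) among 3 lymphocyte markers. The other lymphocyte markers averaged lower in Mist1KO after saline and were not called. Cd79a averaged 127 in Mist1KO and 189 in wild type, and Ms4a1 91.5 in Mist1KO and 137 in wild type. The summed signal of the 6 hepatocyte markers on the array was 776 to 981 in Mist1KO and 437 to 834 in wild type after caerulein, and 992.5 to 1191 in Mist1KO and 493.5 to 646 in wild type after saline. Ttr, also a gene of pancreatic islets, averaged 787 in Mist1KO and 224 in wild type after saline by 1 of its probe sets. Alb averaged 113 in Mist1KO and 135 in wild type after saline, Apoh 118 in Mist1KO and 158 in wild type, Apoa1 36.4 in Mist1KO and 15.8 in wild type, Ahsg 16.7 in Mist1KO and 12.2 in wild type and Fgb 2.27 in Mist1KO and 1.73 in wild type. After caerulein 7 of the 9 acinar markers were lower in Mist1KO, and 0 with quantile normalization (limma, adjusted p under 0.05), and of 4 duct markers Krt19 was higher (1.27 ± 0.21, adjusted p = 0.000952). The other duct markers were not called after caerulein and went both ways. Sox9 averaged 126 in Mist1KO and 200 in wild type, Muc1 1161 in Mist1KO and 1433 in wild type, and Car2 174 in Mist1KO and 90.9 in wild type. Of 7 endocrine markers, Ins2 and Iapp were lower in Mist1KO after caerulein and none was higher. Ins2 lost its call without any of 4 arrays, and Iapp without any of 3. Ttr was higher among 3 hepatocyte markers. No fibroblast, macrophage and neutrophil, intestinal or lymphocyte marker was called by its brightest probe set. Counted by any probe set, 1 macrophage and neutrophil marker was higher. The part of these cell types in the differences of the 10 genes was not tested.

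The 10 genes are spread over the genome, on chromosome 1 (Apcs), 3 (Tm4sf4), 8 (Hpgd), 9 (Cldn18), 10 (Moxd1), 11 (Rasl10a), 19 (Fads3 and Cblif) and X (Smarca1 and Bex3). None is on chromosome 5, which carries Bhlha15. The nearest tested gene on each side of a member gave 20 neighbours, each read by its brightest probe set, of which 1 was higher and 1 lower in Mist1KO after saline, with a median log2 difference of -0.10. Counting a neighbour by any of its probe sets, as the 10 genes are counted, 2 were higher and 2 lower, Ewsr1 beside Rasl10a and Fads2 beside Fads3 being added. By the brightest probe set the higher one was Fbxo8 beside Hpgd, at 192 ± 12.5 in Mist1KO and 127 ± 13.5 in wild type (SD, n = 3 each; limma adjusted p = 0.0479), a call lost without any of 10 of the 12 arrays. The lower one was Sox14 beside Cldn18, at 60.3 ± 24.4 in Mist1KO and 184.5 ± 46.3 in wild type (adjusted p = 0.0202), lost without wild type saline replicate 2 or 3 or Mist1KO saline replicate 3. After caerulein 3 neighbours were higher (Tm4sf1, Wwtr1 and Ap1b1) and 2 lower (Tceal9 and Fads2), the call for Wwtr1 being lost without wild type caerulein replicate 2 or Mist1KO caerulein replicate 1 or 2. Of the 30 tested genes between Fads3 and Cblif on chromosome 19, Pga5 was the 1 called higher after saline and none was lower, with a median of -0.14.

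The members' profiles over the 12 arrays were compared with the mean of the others, as a description, since all were chosen on these arrays. Pearson's r was 0.964 for Cblif and Bex3, 0.961 for Apcs, 0.959 for Smarca1, 0.951 for Moxd1 and Fads3, 0.897 for Rasl10a and 0.884 for Tm4sf4. It depended on the probe set for Cldn18, at 0.574 by 1425445_a_at, which has the higher mean log2 signal, and 0.877 by 1449428_at. For Hpgd it was 0.463 by 1419905_s_at and 0.352 by 1419906_at. Of all other named genes, those most like the mean member profile were Psme1 (r = 0.988), Hnrnpdl (0.987), Gstm5 (0.975), Xiap (0.966), Sult1c2 (0.963) and Syncrip (0.959). Gstm5, a glutathione transferase, averaged 758 in Mist1KO after caerulein and 1133 in Mist1KO after saline, against 172 in wild type after caerulein and 230 in wild type after saline. The most opposite profiles were those of Col7a1 (r = -0.992), Ufm1 (-0.988), P2rx4 (-0.988) and Rab3d (-0.982). Rab3d, a GTPase of secretory granules, averaged 228 in Mist1KO after caerulein and 323 in Mist1KO after saline, against 1361 in wild type after caerulein and 1242 in wild type after saline.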

How the data were processed

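Linear signal intensities were deposited by the authors, 1 per probe set and array. Their trimmed means were nearly equal, the mark of scaling to 1 mean. The sources used here name no software, scaling target or detection calls. Of 22516 probe sets 64 were controls, and of the rest 20240 had 1 gene symbol in the platform annotation, 682 several and 1530 none.

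Controls and probe sets at or below the 30th percentile of mean log2 were left out, leaving 15716 probe sets of 9481 genes. log2(intensity + 18.7), the offset being the 20th percentile of all values, was fitted with limma 3.58.1 in R 4.3.3 as 4 group means (eBayes with a trend, 8 residual and 5.75 prior degrees of freedom), two-sided, with Benjamini-Hochberg adjustment over all probe sets tested and a threshold of 0.05. The procedure was tested on simulated data. Genes of lists were represented by their brightest probe set, the one with the highest mean log2 signal. The genes, lists and comparisons were chosen with earlier results of these data known. Named genes are the 10 members, list genes and neighbours past the threshold after saline (at most 4 per list), the brightest stomach genes and the genes with the most similar or opposite profiles; names given only for caerulein comparisons were added after their values were seen. Alternatives were the offset, the filter, quantile or median scaling, the trend, a replicate block, 2-group fits and leaving out each array. Same-numbered arrays of different groups deviated from their group means with correlations of -0.104 to 0.0452, so the numbers were not taken as pairs. Precision is limited by 3 arrays per group.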

Additional observations from a re-analysis of the deposited data

Results flagged for a closer look

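The limma interaction of genotype and caerulein passed the threshold for 3 genes. It is the difference between the genotype differences that chose the genes, so it is not independent of that choice. Its p-values only describe size against spread. For Hpgd (1419905_s_at) the interaction was -2.71 on the log2 scale (adjusted p = 0.00369), with a fall of 4.40 in Mist1KO and of 1.69 in wild type. For Tm4sf4 (1424962_at) it was 1.81 (adjusted p = 0.0168), with a rise of 1.37 in Mist1KO and a change of -0.44 in wild type that did not pass the threshold. Tm4sf4 is dim in wild type, and its call was lost without Mist1KO caerulein replicate 2 (adjusted p = 0.0556). For Cldn18 (1425445_a_at) the interaction was 1.43 (adjusted p = 0.0155), with a rise of 1.24 in Mist1KO and a change of -0.19 in wild type that did not pass. The interaction did not pass by the other probe sets of Hpgd (1419906_at, adjusted p = 0.0742) and Cldn18 (1449428_at, adjusted p = 0.0738). No group held enough arrays for a test of single outlying values.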

How the results depend on the processing

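The 36 tests of the 10 genes for caerulein and for the interaction gave 738 values under the alternatives, of which 698 kept direction and side of the threshold, 6 lost and 22 gained a call and 12 changed sign. The cause of these changes was not tested. In wild type, 1 gene instead of 2 was called with quantile normalization, with median-centred arrays and with only the 2 groups fitted, Bex3 being lost. In Mist1KO, 6 genes were called with the filter at the 50th percentile and 9 with the offset at the 40th percentile or only the 2 groups fitted, against 7. For the interaction, 7 genes instead of 3 were called with the offset at the 40th percentile and 5 with quantile normalization; without a trend the count over all probe sets was 328 instead of 518. Leaving out each array gave 1068 to 2059 calls between genotypes after saline (main 1977), 271 to 552 for the interaction, 1 to 2 member genes in wild type and 2 to 5 for the interaction. The genotype count was 1158, 1078 and 1068 without wild type saline replicate 2 and Mist1KO saline replicates 1 and 3. The interaction count was 344 without wild type caerulein replicate 2, 309 and 274 without Mist1KO saline replicates 1 and 3, and 271 and 300 without Mist1KO caerulein replicates 1 and 2.

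Among the 10 genes, signs changed only for values that did not pass. With median-centred arrays Apcs in Mist1KO was 0.0616 and Moxd1 in wild type 0.0616, and with quantile normalization Moxd1 was 0.028. Leaving out 1 array at a time, Apcs in Mist1KO ranged from -0.24 to 0.13 (0.10 without Mist1KO caerulein replicate 1). In wild type the ranges were -0.0396 to 0.42 for Apcs, -0.14 to 0.40 for Fads3, -0.26 to 0.0418 for Cblif, -0.39 to 0.044 for Smarca1 and -0.63 to 0.0072 for Hpgd (1419906_at). The interaction of Bex3 was -0.0143 with the higher offset and ranged from -0.0865 to 0.45 with 1 array left out. Quantile normalization gives the brightest probe sets nearly the same value on every array. It put Cela3b, which passed otherwise (-0.86, limma adjusted p = 0.00374), at 0.011 between genotypes after caerulein. Prss2 was put at 0 there and in Mist1KO after caerulein, so the acinar counts depend on this normalization. With the replicate block the calls were 1648 between genotypes after saline, 2903 after caerulein, 3536 in Mist1KO, 2772 in wild type and 392 for the interaction, and the block changed no call of the 10 genes. Its number is not taken as a pairing. Without detection calls, the depth of dim wild type signals is not known.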

Other observations

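Anxa10, a stomach annexin, was dim on most arrays and was left out by the filter. Its probe set 1449426_a_at averaged 147 in Mist1KO after caerulein (60.5 to 209 on the 3 arrays) and 16.4 in Mist1KO after saline, against 14.8 in wild type after caerulein and 5.57 in wild type after saline. It was picked out after its values were seen and has no test. Its second probe set, 1430443_at, averaged 25.6 in Mist1KO after caerulein and 1.6 in Mist1KO after saline, against 1.57 in wild type after caerulein and 12.7 in wild type after saline.

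Of the other acute phase genes, Ptx3, Saa3 and Lcn2 were higher in Mist1KO than in wild type after caerulein by 1.76, 1.72 and 1.39 on the log2 scale (limma adjusted p = 0.0133, 0.0142 and 0.0148). Each call was lost without at least 1 array: Ptx3 without Mist1KO caerulein replicate 2, Lcn2 without Mist1KO caerulein replicate 3, and Saa3 without that array or wild type caerulein replicate 3. Of the 13 acute phase genes tested, 4 were higher after caerulein, Ttr included, and 1 lower, with a median of -0.19. The lower gene was Itih4, at 109 in Mist1KO and 696 in wild type after caerulein. Apcs, the pentraxin among the 10 genes, differed by 2.75 after caerulein and by 3.01 after saline. The elongase gene Elovl1 and the desaturase gene Scd2 were also higher in Mist1KO after caerulein, by 1.46 (adjusted p = 1.07e-05) and 1.42 (adjusted p = 0.00374), whereas Fads2, which lies beside Fads3, was lower by 0.89 (adjusted p = 0.00127). Degs2 of the same list was also called lower, at 72.6 in Mist1KO and 156 in wild type after caerulein.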
